A study of Mus musculus with 16 samples.

Results

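The transcriptional response of the adult mouse liver to loss of glutathione (GSH) synthesis in hepatocytes was read from 8 RNA-seq libraries, 4 labelled Gclc L-KO and 4 labelled WT, among 16 libraries in all. The deposited table held 56832 genes, and the response was described over the 15128 genes whose mean value over the 16 libraries was at least 3. Gclc L-KO mice were *Gclc* f/f and the control mice *Gclc* wt/wt in the series description, while the study's methods allow 1 floxed allele in controls. Both groups received AAV-TBG-Cre by tail vein, so that the controls carried the virus and Cre as well, and livers were harvested 3 weeks later. TBG is a promoter active in hepatocytes, and the other cells of the liver keep *Gclc*. The labels give neither the age nor the sex of the mice, and the methods describe them as adult. The remaining libraries were 4 Nrf2 L-KO and 4 L-DKO, in which *Nrf2* f/f alone or together with *Gclc* f/f was recombined in the same way. All 16 entered one model, so that they share one estimate of the spread.

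GSH is a tripeptide of glutamate, cysteine and glycine that reduces peroxides and is joined to electrophiles by glutathione transferases before their export. Glutamate-cysteine ligase, made of the catalytic subunit GCLC and the modifier GCLM, carries out the first and limiting step. When cysteines of KEAP1 are modified by oxidants or electrophiles, the transcription factor NRF2 escapes degradation and, with small MAF proteins, binds antioxidant response elements at genes of GSH, thioredoxin, NADPH and drug metabolism. Hepatocytes export GSH, make most plasma proteins, fatty acids, bile acids and urea, and clear drugs.

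The values are rlog values, which put scaled counts on a log2 scale and draw each gene's values toward its mean, so that differences of weakly expressed genes are understated. Read counts and depth were not recoverable from them, and medians over the genes tested were nearly equal between libraries. *Xist* was high in replicates 1 and 2 of both groups and low in replicates 3 and 4, and the Y-linked *Ddx3y* ran the other way, so each group held 2 libraries of either kind. Among marker lists of other liver cells, summed levels of the neutrophil, B cell, stellate cell and cholangiocyte lists overlapped between the groups, with 0 of their 24 measured members called. Of 8 markers of sinusoidal endothelium 1 was higher, *Lyve1*, a hyaluronan receptor (1.09), and 0 without WT 1 or without Gclc L-KO 4. Markers of hepatocytes, macrophages and T and NK cells are given below. In bulk liver, fewer cells of a type and less RNA per cell cannot be told apart.

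A total of 3481 of the 15128 genes tested differed between Gclc L-KO and WT at an adjusted p under 0.05 (limma, Benjamini-Hochberg), 1609 higher (10.6%) and 1872 lower (12.4%). Most differences were small. Only 189 genes (1.25%) were higher by at least 1 on the log2 scale and 379 (2.51%) lower by at least 1, and 83.7% of the calls were under 1 in size. The median change was 0.50 among genes called higher, -0.56 among genes called lower and 0.003 over all genes tested. Groups did not overlap for 2912 of the calls. Over all genes tested, 13.3% did not overlap with Gclc L-KO the higher group and another 13.3% with Gclc L-KO the lower. The count depended on the 2 libraries farthest from WT, with 2021 genes called without Gclc L-KO 3 and 1999 without Gclc L-KO 4.

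Genes with the highest values fell more often than others. Of the 100 genes with the highest mean rlog value, 51 were called lower and 8 higher, with a median change of -0.54, and among the 3782 genes with the lowest values 7.32% were lower and 5.68% higher. These ranks rest on read number, which grows with transcript length as well as abundance. The largest rises were *Gm3776*, *Gsta1* and *Cbr3*, and the largest falls in abundant genes were *Slco1a1*, *Mup3*, *Car3* and *Scd1*.

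**Figure D1:**
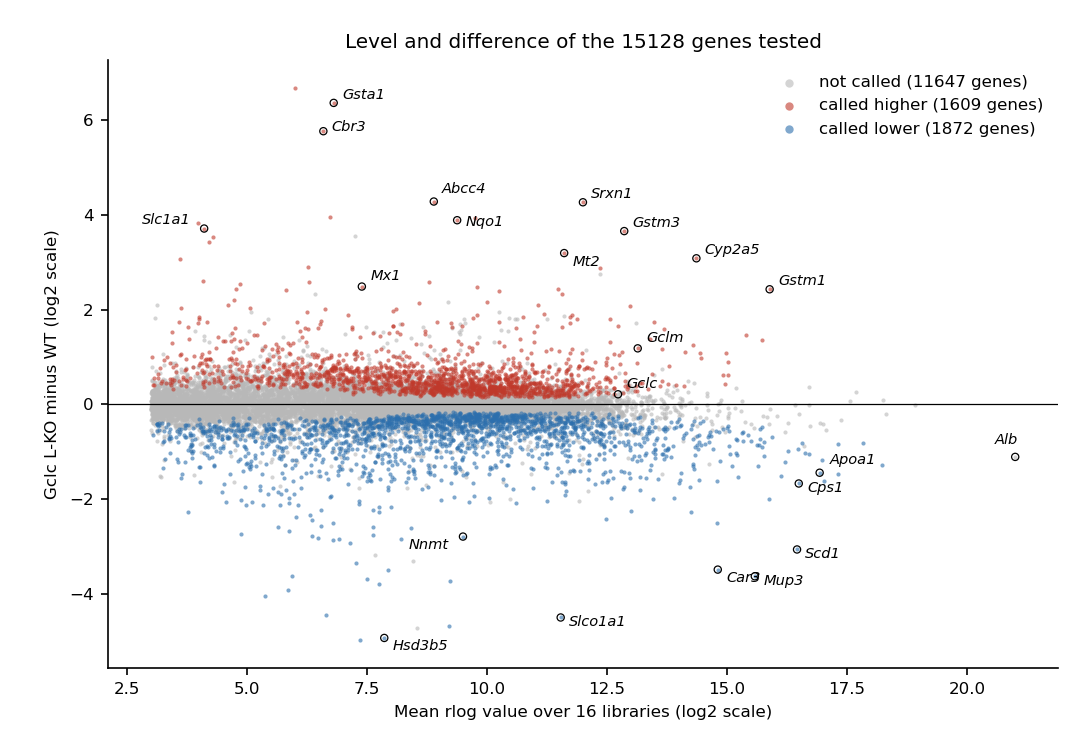
Mean rlog value over 16 libraries (x axis, log2 scale) and Gclc L-KO minus WT difference (y axis, log2 scale) of each of the 15128 genes tested, with 1609 genes called higher in red and 1872 called lower in blue. Genes with high values, at the right, lie mostly below 0, and circled genes are named in the text.

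*Gclc* itself gave no sign of the deletion in values summed over the whole gene. It read 13.001, 12.96, 13.40 and 13.52 in WT 1 to 4 and 13.01, 12.81, 13.84 and 14.06 in Gclc L-KO 1 to 4, and the groups overlapped (difference 0.21 ± 0.23 SE, limma adjusted p = 0.535). In L-DKO it averaged 11.47, with 11.45, 11.44, 11.33 and 11.66 in L-DKO 1 to 4, all below every WT or Gclc L-KO liver. Exons outside the deleted part are counted in every library, L-DKO included. Why *Gclc* read lower in L-DKO but not in Gclc L-KO was not tested. By quantitative PCR the study reported depleted *Gclc* mRNA in Gclc L-KO liver. The value here is not taken as a check of the label, and every direction below is that of the libraries labelled Gclc L-KO. *Nfe2l2*, which encodes NRF2, was likewise uncalled (0.19 ± 0.21 SE, limma adjusted p = 0.524). Among its regulators the repressors *Keap1* (0.26, uncalled in either pair of replicates alone) and *Bach1* (0.88) and the KEAP1-binding autophagy receptor *Sqstm1* (1.11) were higher in every Gclc L-KO library than in any WT library. Of the 13 measured genes of NRF2, its relatives and its regulators, 3 were called higher and 2 lower, with changes from -0.65 to 1.11.

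The rest of GSH metabolism moved in both directions. Of 20 measured genes of GSH synthesis, salvage and glutaredoxins, 6 were higher and 4 lower. *Gclm* read 12.81, 12.82, 12.85 and 12.76 in WT and 13.66, 13.92, 14.15 and 14.24 in Gclc L-KO (1.18 ± 0.10 SE, limma adjusted p = 3.31e-06). *Gsr*, which regenerates GSH from its disulfide, read 10.91, 11.03, 11.21 and 11.12 in WT and 12.19, 12.50, 12.996 and 13.13 in Gclc L-KO, a difference of 1.63. *Gss*, which adds glycine in the second step, was 1.17 higher. For these genes every Gclc L-KO liver stood above every WT liver, and *Chac2*, which degrades GSH in the cytosol, was lower (-0.62).

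Importers of cysteine and cystine varied widely between Gclc L-KO livers. *Slc1a1*, a glutamate and cysteine importer weakly read in WT liver, rose from 3.09, 3.05, 3.20 and 3.17 in WT to 4.54, 6.38, 7.80 and 8.62 in Gclc L-KO (3.71 ± 0.60 SE, limma adjusted p = 9.47e-04). *Slc7a11*, the cystine importer of system xc-, read 3.40, 3.24, 3.18 and 2.95 in WT and 3.20, 4.72, 8.64 and 10.35 in Gclc L-KO, so Gclc L-KO 1 lay within the WT range and Gclc L-KO 4 far above it (3.54 ± 1.08 SE, limma adjusted p = 0.0298). That call was lost without any one WT library and without Gclc L-KO 3 or 4. *Cdo1*, which breaks cysteine down, fell by 1.20, *Cbs*, which makes cystathionine from homocysteine, by 1.05, and 10 of 22 genes of the methionine cycle, transsulfuration and cysteine breakdown were lower and 0 higher. *Nnmt*, which methylates nicotinamide with a methyl group from S-adenosylmethionine, had the largest fall of that list, from 10.61, 10.76, 10.86 and 10.50 in WT to 9.06, 8.04, 7.16 and 7.31 in Gclc L-KO.

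Some thiol and peroxide enzymes rose and others fell. Of 15 measured genes in the list of peroxidases, superoxide dismutases and catalase, 3 were higher and 3 lower. Of 16 genes of the thioredoxin and peroxiredoxin system 6 were higher and 2 lower. *Srxn1*, which repairs overoxidized peroxiredoxins, read 10.62, 10.84, 11.06 and 11.10 in WT and 13.49, 14.69, 16.06 and 16.44 in Gclc L-KO (4.26 ± 0.44 SE, limma adjusted p = 3.06e-05). *Txnrd1*, the cytosolic thioredoxin reductase, was 1.79 higher and its substrate *Txn1* 0.82 higher, whereas the mitochondrial reductase *Txnrd2* was lower (-0.65). *Gpx2*, a glutathione peroxidase known from gut epithelium, rose from 2.89, 3.08, 3.42 and 2.90 in WT to 4.86, 6.75, 7.45 and 8.56 in Gclc L-KO. *Gpx4*, which reduces lipid hydroperoxides, was 1.09 higher with no overlap, while *Gpx1*, the abundant cytosolic peroxidase, differed by -0.08 ± 0.14 SE (limma adjusted p = 0.713). The methionine sulfoxide reductases *Msra* (-0.70) and *Msrb1* (-0.68) were lower.

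The promoters of these genes were searched for the core of the antioxidant response element, TGACNNNGC on either strand, in RefSeq windows of 250 bases before to 50 bases after each start (GRCm38.p6, matched by symbol for 11166 of the 15128 genes tested). It was found in 16.7% of all matched genes, 18.4% of genes called higher, 17.5% of genes called lower, 31 of the 144 matched genes called higher by at least 1 (21.5%) and 34 of the 246 called lower by at least 1 (13.8%). The same core followed directly by an A was found in 3.41% of all matched genes, 14 of those 144 (9.72%) and 11 of those 246 (4.47%). The stricter forms TGACTCAGC or TGAGTCAGC, taken up after the sequences had been seen, were found in 0.985%, 8 of 144 (5.56%) and 3 of 246 (1.22%). The first of these is one form of the core and the second lies outside it, and a match is a description of letters and not of binding. Of 58 genes that met the rule for naming and rose by at least 1, 47 had a window. A match before the start, to the core or to TGAGTCAGC, was found in 10 of those. The share over all genes was not counted for this definition, so the 10 serve as examples only. Matches of 6 of these 10 are shown, chosen from redox and conjugation genes described here, 5′ to 3′ on the gene's strand, with the match in capitals (a match on the other strand appears as its reverse complement).
Srxn1, chr2:152105457-152105509, plus strand: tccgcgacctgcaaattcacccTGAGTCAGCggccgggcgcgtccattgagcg
Gstp2, chr19:4042280-4042332, minus strand: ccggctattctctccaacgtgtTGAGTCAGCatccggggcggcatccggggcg
Mt2, chr8:94172517-94172569, plus strand: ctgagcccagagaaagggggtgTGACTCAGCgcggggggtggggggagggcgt
G6pdx, chrX:74428907-74428959, minus strand: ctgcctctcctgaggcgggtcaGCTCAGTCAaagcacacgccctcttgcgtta
Ugdh, chr5:65435906-65435996, minus strand: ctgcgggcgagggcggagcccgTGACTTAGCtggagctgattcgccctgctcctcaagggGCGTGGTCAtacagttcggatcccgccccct
Txnrd1, chr10:82859092-82859144, plus strand: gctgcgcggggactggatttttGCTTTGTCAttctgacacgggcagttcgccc
The capitals of *Srxn1* and *Gstp2* are the same 9 letters, begin 45 and 89 bases before the start, and belong to genes that rose in every liver, and the match of *Mt2* begins 79 bases before its start.

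Conjugating enzymes held the largest rises of the whole table. Of 23 measured glutathione transferases 10 were higher and 4 lower (2 lower without WT 3, WT 4, Gclc L-KO 3 or Gclc L-KO 4). *Gsta1* read 4.80, 5.15, 5.29 and 5.78 in WT and 10.66, 11.04, 11.80 and 12.96 in Gclc L-KO (6.36 ± 0.37 SE, limma adjusted p = 6.67e-08). *Gstp2* read 5.30, 5.31, 6.03 and 6.30 in WT and 8.10, 9.72, 10.37 and 10.55 in Gclc L-KO. *Gstm3* was 3.66 higher, and *Gstm1*, which was already high in WT (15.67 to 16.12), reached 18.19 to 18.37, with a narrow spread among the 4 livers. *Gsta2* (3.94) and the related gene model *Gm3776* (6.68) also rose, but *Gsta1*, *Gsta2* and *Gm3776*, like *Gstp1* and *Gstp2*, are near copies between which reads may be split, so their separate values are uncertain.

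Quinone and carbonyl reductases included large rises, while glucuronosyl- and sulfotransferases were split. Among 34 quinone, carbonyl and aldehyde enzymes 12 were higher and 5 lower, the latter count ranging from 2 to 10 when 1 library was left out, most without Gclc L-KO 1 and least without WT 1, WT 3 or Gclc L-KO 4 (3 without WT 2, WT 4 or Gclc L-KO 3). *Nqo1* read 8.81, 9.16, 8.31 and 8.05 in WT and 11.82, 12.61, 12.64 and 12.79 in Gclc L-KO. *Cbr3*, a carbonyl reductase, read 5.13, 5.11, 5.47 and 4.96 in WT and 10.27, 11.21, 11.19 and 11.06 in Gclc L-KO (5.76 ± 0.22 SE, limma adjusted p = 1.12e-09), with Gclc L-KO 1 below the other 3. *Cbr1* was 2.34 and *Akr1c19* 1.88 higher. *Ugdh*, which makes UDP-glucuronic acid, was 2.07 higher, as were the glucuronosyltransferases *Ugt1a9* (2.09) and *Ugt2b35* (1.66), while the sulfotransferases *Sult1a1* (-1.40) and *Sult2a8* (-2.004) fell. Of 28 glucuronosyl- and sulfotransferases 5 were higher and 5 lower, with a median of -0.47 (10 lower without Gclc L-KO 1 and 3 without WT 3, Gclc L-KO 3 or Gclc L-KO 4).

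Some export pumps rose, and uptake carriers were more often lower than higher. Of 15 ABC exporters 4 were higher and 1 lower, with a median of 0.19 (2 higher without WT 1, 3 or 4 or without Gclc L-KO 3 or 4). *Abcc4*, an efflux pump of the basolateral membrane, read 7.44, 8.16, 7.61 and 8.26 in WT and 11.66, 12.02, 12.49 and 12.41 in Gclc L-KO (4.28 ± 0.30 SE, limma adjusted p = 4.47e-07), and the canalicular pump *Abcc2* was 1.09 higher. Of 17 organic ion uptake carriers 9 were lower and 2 higher, with a list median of -0.76 (5 lower without Gclc L-KO 3 and 5 without Gclc L-KO 4). *Slco1a1*, an organic anion carrier of the sinusoidal membrane, read 12.58, 12.21, 13.71 and 13.68 in WT and 9.14, 8.42, 8.56 and 8.08 in Gclc L-KO (-4.49 ± 0.37 SE, limma adjusted p = 2.41e-06). *Slc10a1*, the bile acid importer NTCP, fell by 1.58 and *Slc22a28* by 2.67.

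Cytochromes P450 were split. Of 57 members of families 1 to 4, 3 were higher and 11 lower (1 higher without Gclc L-KO 3), and the count of 11 grew to 18 with a replicate block and to 24 in replicates 3 and 4 alone. *Cyp2a5*, a coumarin hydroxylase, read 14.42, 15.10, 13.84 and 14.13 in WT and 17.40, 17.46, 17.52 and 17.44 in Gclc L-KO, with reads that may be shared with its near copy *Cyp2a4*. In the other direction *Cyp2c23* fell by 2.43, *Cyp2c70* by 1.80 and *Cyp4f14* by 1.67, all with no overlap. *Cyp2b9* was high in replicates 1 and 2 of both groups and low in replicates 3 and 4 of both, and did not differ by genotype beyond that spread (-0.50 ± 1.71 SE). Of 14 carboxylesterases 7 were lower and 2 higher, with a median of -0.50, and the largest called changes were those of *Ces3b* (-1.98) and *Ces2c* (1.73). The lower count was 4 without WT 1 or WT 3, 3 without WT 4 or Gclc L-KO 3 and 2 without Gclc L-KO 4, and the higher count 1 without WT 1 or Gclc L-KO 2.

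NADPH and iron genes rose in a few members each, and haem genes were split, with 3 of 14 higher and 3 lower. *G6pdx*, the entry enzyme of the pentose phosphate pathway, read 7.85, 8.51, 8.04 and 8.76 in WT and 9.19, 10.67, 11.30 and 12.33 in Gclc L-KO, with Gclc L-KO 1 the nearest to WT. *Pgd*, which follows it, was 1.65 higher, and 4 of 16 genes of the list were higher and 0 lower. Iron storage (*Fth1* 1.46, *Ftl1* 1.37), export (*Slc40a1*, ferroportin, 1.31) and uptake (*Tfrc*, the transferrin receptor, 1.61) were all higher, 5 of 15 iron genes in all, against 2 lower. *Hmox1*, which degrades haem, read 9.28, 9.49, 9.38 and 9.23 in WT and 10.81, 11.52, 12.05 and 12.59 in Gclc L-KO, and *Blvrb*, a biliverdin and flavin reductase, was 1.72 higher, while *Alad*, an early enzyme of haem synthesis, fell by 0.70.

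Metallothioneins, small cysteine-rich metal-binding proteins, had similar values in all 4 Gclc L-KO livers, while their values differed among WT livers. *Mt2* read 11.35, 10.33, 8.55 and 8.53 in WT and 12.62, 13.17, 13.18 and 12.56 in Gclc L-KO (3.19 ± 0.59 SE, limma adjusted p = 0.00223). *Mt1* ran in parallel (2.87 ± 0.52 SE), and reads of the pair may be shared. The WT values, not those of Gclc L-KO, separated replicates 1 and 2 from replicates 3 and 4.

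Protein turnover showed small rises, which were even between the pairs of replicates for the proteasome. Of 41 measured proteasome subunits and assembly factors 25 were higher and 1 lower, with a median change of 0.22 in replicates 1 and 2 and 0.21 in replicates 3 and 4. *Psma1*, a subunit of the outer ring, read 11.39, 11.34, 11.45 and 11.41 in WT and 11.82, 11.88, 11.82 and 11.76 in Gclc L-KO. *Psmd5*, an assembly factor of the regulatory particle, had the largest change of the list, 0.79 ± 0.07 SE (limma adjusted p = 7.34e-06), and *Psmb5*, a catalytic subunit, was 0.51 higher. Heat shock chaperones were higher in 9 of 22 cases and lower in 0, among them *Hsp90aa1* (0.78) and *Hsph1* (0.86), both uncalled in replicates 3 and 4 alone, and 6 were called without WT 1, without WT 2 or without Gclc L-KO 3. Autophagy and lysosome genes were higher in 12 of 35 (7 without Gclc L-KO 4, 8 without WT 1), with the lysosomal hydrolase *Gla* (0.81) and the proton pump subunit *Atp6v1a* (0.68) as examples. The median change of that list was 0.06 in replicates 1 and 2 and 0.26 in replicates 3 and 4.

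Other stress programmes gave few calls. Of 35 genes of the integrated stress response 2 were higher and 2 lower, shares below those of all genes, with 8 higher without Gclc L-KO 1 and 0 higher without WT 1, WT 3, WT 4, Gclc L-KO 3 or Gclc L-KO 4. Its transcription factors *Atf4* (-0.30 ± 0.13 SE, limma adjusted p = 0.108) and *Ddit3* (0.45 ± 0.34 SE, limma adjusted p = 0.363) were uncalled. Of 24 p53 targets 1 was higher (3 without Gclc L-KO 1) and 1 lower, and *Cdkn1a* read 6.83, 7.36, 8.49 and 8.29 in WT and 7.30, 8.89, 9.59 and 10.97 in Gclc L-KO, a spread too wide for the test. Of 27 endoplasmic reticulum chaperones and unfolded protein response genes 7 were lower and 1 higher, such as the transcription factor *Xbp1* (-0.44) and the disulfide isomerase *Pdia6* (-0.61), and 3 were called lower without WT 1, Gclc L-KO 3 or Gclc L-KO 4 and 4 without WT 3 or WT 4. The list median was 0.15 in replicates 1 and 2 and -0.55 in replicates 3 and 4, opposite in sign, and WT 3 and 4 (0.14 and 0.23 from the WT mean, as medians of the list) stood above WT 1 and 2 (-0.23 and -0.29). *Mlkl*, the executor of necroptosis, read 7.69, 7.86, 7.55 and 7.67 in WT and 8.81, 8.96, 8.67 and 8.79 in Gclc L-KO (1.11 ± 0.16 SE, limma adjusted p = 3.18e-04), and *Bcl2l1*, which encodes the survival factor BCL-XL, was lower (-0.33).

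**Figure D2:**
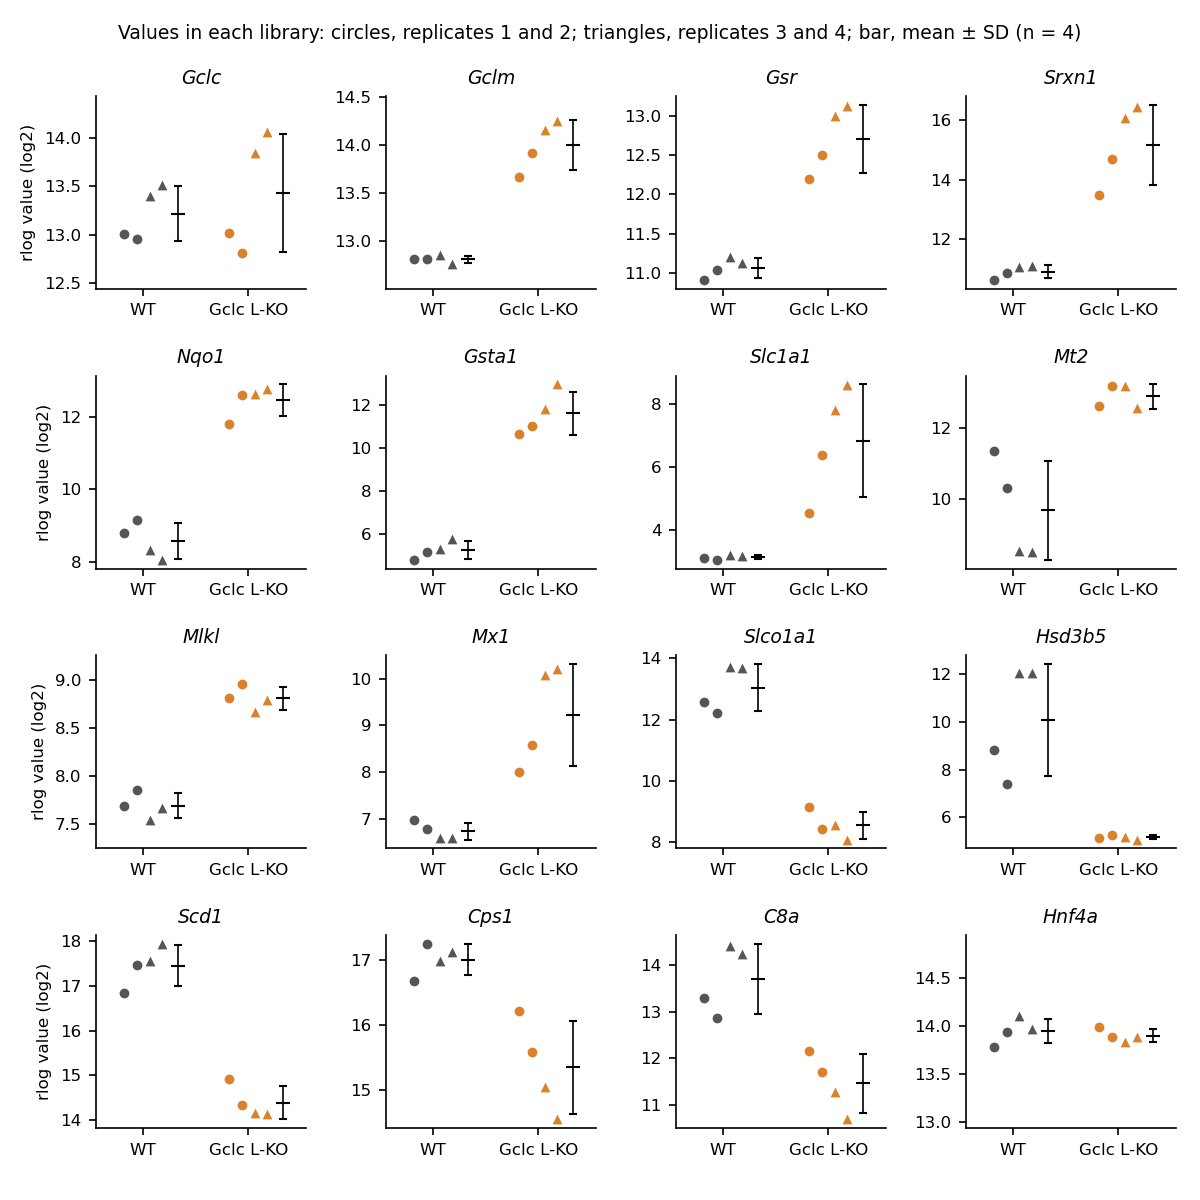
rlog values (y axes, log2 scale, each with its own range) of 16 genes in the 4 WT and 4 Gclc L-KO libraries, with circles for replicates 1 and 2, triangles for replicates 3 and 4 and a bar for the mean ± SD of 4. *Gclc* and *Hnf4a* overlap between groups, *Mt2* and *Hsd3b5* spread in WT but not in Gclc L-KO, and *Slc1a1* spreads in Gclc L-KO but not in WT.

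The deepest falls were in genes of the secreted and steroid-metabolizing repertoire that growth hormone is known to control in mouse liver. Major urinary proteins, carriers of pheromones, were represented by 17 measured genes, of which 14 were lower and 0 higher, with a median change of -3.63, and 12 to 15 were lower whichever library was left out. The median was -1.48 in replicates 1 and 2 and -5.17 in replicates 3 and 4, and the median level of these genes was 7.22 and 6.11 in WT 1 and 2 and 10.41 and 10.996 in WT 3 and 4. *Mup3* read 16.67, 16.27, 17.41 and 17.51 in WT and 13.78, 12.95, 13.55 and 13.09 in Gclc L-KO (-3.63 ± 0.33 SE, limma adjusted p = 8.68e-06). These genes are near copies, so reads may be assigned to the wrong member. *Hsd3b5*, a steroid dehydrogenase, read 8.84, 7.42, 12.05 and 12.03 in WT and 5.12, 5.26, 5.19 and 5.07 in Gclc L-KO, all 4 of which lay below the lowest WT liver. *Car3*, a carbonic anhydrase, fell from 15.51, 15.58, 16.05 and 16.46 in WT to 14.46, 12.14, 11.62 and 11.44 in Gclc L-KO, with Gclc L-KO 1 well above the others. Of 19 genes of the growth hormone, STAT5 and IGF1 axis 6 were lower and 0 higher (4 lower without Gclc L-KO 3), among them the receptor *Ghr* (-1.14), the binding protein *Igfbp2* (-1.74) and the serpin *Serpina12* (-2.58).

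Lipid genes fell across several pathways. Of 22 genes of fatty acid synthesis, desaturation and elongation 15 were lower and 1 higher (median -0.95), a count between 14 and 17 whichever library was left out. *Scd1*, the main desaturase, read 16.84, 17.47, 17.56 and 17.94 in WT and 14.93, 14.33, 14.16 and 14.14 in Gclc L-KO, and *Acacb* (-1.76), *Srebf1* (-1.57) and *Fasn* (-1.46) were lower with no overlap. Of 26 genes of cholesterol synthesis and sterol control 17 were lower and 0 higher, led by *Fdps* (-1.49) and the feedback regulator *Insig1* (-1.42). Among 24 apolipoprotein and lipoprotein genes 15 were lower and 1 higher (10 lower without Gclc L-KO 3 or 4), with the hepatic lipase *Lipc* (-1.64), the lipase inhibitor *Angptl8* (-1.79) and *Apoa1* (-1.44) as examples, while *Apob* differed by 0.06 ± 0.18 SE. *Fabp1*, the abundant fatty acid carrier, read 16.81, 16.16, 16.32 and 16.28 in WT and 15.36, 14.96, 13.79 and 13.48 in Gclc L-KO. Fatty acid oxidation did not share this pattern, with 4 of 34 genes higher, 6 lower and a median of -0.11 (2 higher and 3 lower without Gclc L-KO 3 or 4, 2 higher without WT 3, 3 lower without WT 1), and its regulator *Ppara* (-0.11) and the carnitine transferase *Cpt1a* (-0.21) were uncalled.

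Genes of nitrogen and glucose metabolism were more often lower than higher. Of 14 genes of the urea cycle and ammonia handling 9 were lower and 1 higher, but 4 were lower without Gclc L-KO 3 or without Gclc L-KO 4, 5 without WT 2 or WT 4, and 6 without WT 1. *Cps1*, the mitochondrial entry enzyme, read 16.68, 17.24, 16.99 and 17.13 in WT and 16.21, 15.58, 15.04 and 14.54 in Gclc L-KO (-1.67 ± 0.29 SE, limma adjusted p = 0.00149). *Otc*, the next enzyme, differed by -0.52 ± 0.20 SE and was uncalled (limma adjusted p = 0.0703). Of 37 genes of amino acid breakdown 16 were lower and 1 higher, with *Tat*, which degrades tyrosine (-1.59), *Acmsd* of tryptophan breakdown (-1.42) and *Agxt*, which detoxifies glyoxylate (-1.39), as examples with no overlap, whereas *Tdo2*, the first enzyme of tryptophan breakdown, read 0.34 above WT and was uncalled. Of 29 genes of glycolysis, gluconeogenesis and glycogen 9 were lower and 4 higher (4 lower without Gclc L-KO 3 and 5 without Gclc L-KO 4, 2 higher without WT 2, 3 or 4 or without Gclc L-KO 3 or 4), and *Pck1* of gluconeogenesis was among those lower (-1.61).

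Plasma proteins were lower in almost every class. Of 25 coagulation and fibrinolysis factors 21 were lower and 0 higher (median -0.67), the largest share among the 56 lists, and 15 to 21 were lower whichever library was left out. The fibrinogen chain *Fgb* read 17.08, 16.78, 16.98 and 16.84 in WT and 16.30, 16.21, 15.64 and 15.40 in Gclc L-KO, and *F2* (prothrombin, -0.58, uncalled under quantile normalization), *F11* (-1.13) and *Proz* (-1.02) were lower with no overlap. Of 22 complement factors 15 were lower and 0 higher. *C8a*, of the membrane attack complex, read 13.30, 12.86, 14.42 and 14.24 in WT and 12.17, 11.72, 11.27 and 10.70 in Gclc L-KO, and *C9* (-1.55) and *C8b* (-1.47) fell too, whereas *C3*, the most abundant, differed by 0.10 ± 0.26 SE.

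Carriers showed the same direction, 15 of 21 lower and 0 higher, 9 of them under quantile normalization. The thyroxine carrier *Serpina7* fell by 1.92, and all 5 measured *Serpina1* copies (alpha-1-antitrypsin, with reads that may be shared) were lower. *Alb*, albumin, read 21.49, 21.38, 21.12 and 21.28 in WT and 20.86, 20.62, 19.76 and 19.61 in Gclc L-KO, with no overlap but without a call (-1.11 ± 0.63 SE, limma adjusted p = 0.216). Acute phase proteins were lower in 7 of 23 and higher in 1, and 19 were lower in replicates 3 and 4 alone. *Orm1* (-1.53) and *Itih4* (-1.53) had the largest falls among the members called.

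Hepatocyte transcription factors gave calls in 1 direction only. Of 22 factors and nuclear receptors 4 were lower (18.2%, against 12.4% of all genes tested) and 0 higher, with a median of -0.29. The lower count was 2 without Gclc L-KO 4 and 7 without Gclc L-KO 1. *Hnf4a* read 13.78, 13.94, 14.10 and 13.97 in WT and 13.99, 13.88, 13.83 and 13.89 in Gclc L-KO (-0.05 ± 0.09 SE, limma adjusted p = 0.719). The pioneer factor *Foxa1* (-0.77) was lower. Among zonation genes 9 of 19 pericentral and 10 of 18 periportal genes were lower, but the pericentral count fell to 0 without Gclc L-KO 3 or without Gclc L-KO 4, to 3 without WT 1 or WT 2 and to 5 without WT 3, WT 4 or Gclc L-KO 2, and the periportal one to 5 without Gclc L-KO 3 and 6 without Gclc L-KO 4.

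Respiratory chain genes were slightly lower and ribosomal genes were not. Of 77 nuclear-encoded subunits 21 were lower and 0 higher, with a median of -0.15 in all and 9 lower without WT 1, 10 without Gclc L-KO 3 and 10 without Gclc L-KO 4. Of 7 mitochondrially encoded genes 4 were lower, with a median of -0.88 (2 without WT 1, WT 2 or WT 3 and 2 without Gclc L-KO 2, 3 or 4). *mt-Co1*, a cytochrome oxidase subunit, read 19.27, 18.989, 18.996 and 19.02 in WT and 18.52, 17.91, 17.41 and 17.30 in Gclc L-KO, and its call was lost without any one library but Gclc L-KO 1. Of 84 cytosolic ribosomal proteins 0 were higher and 1 lower.

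**Figure D3:**
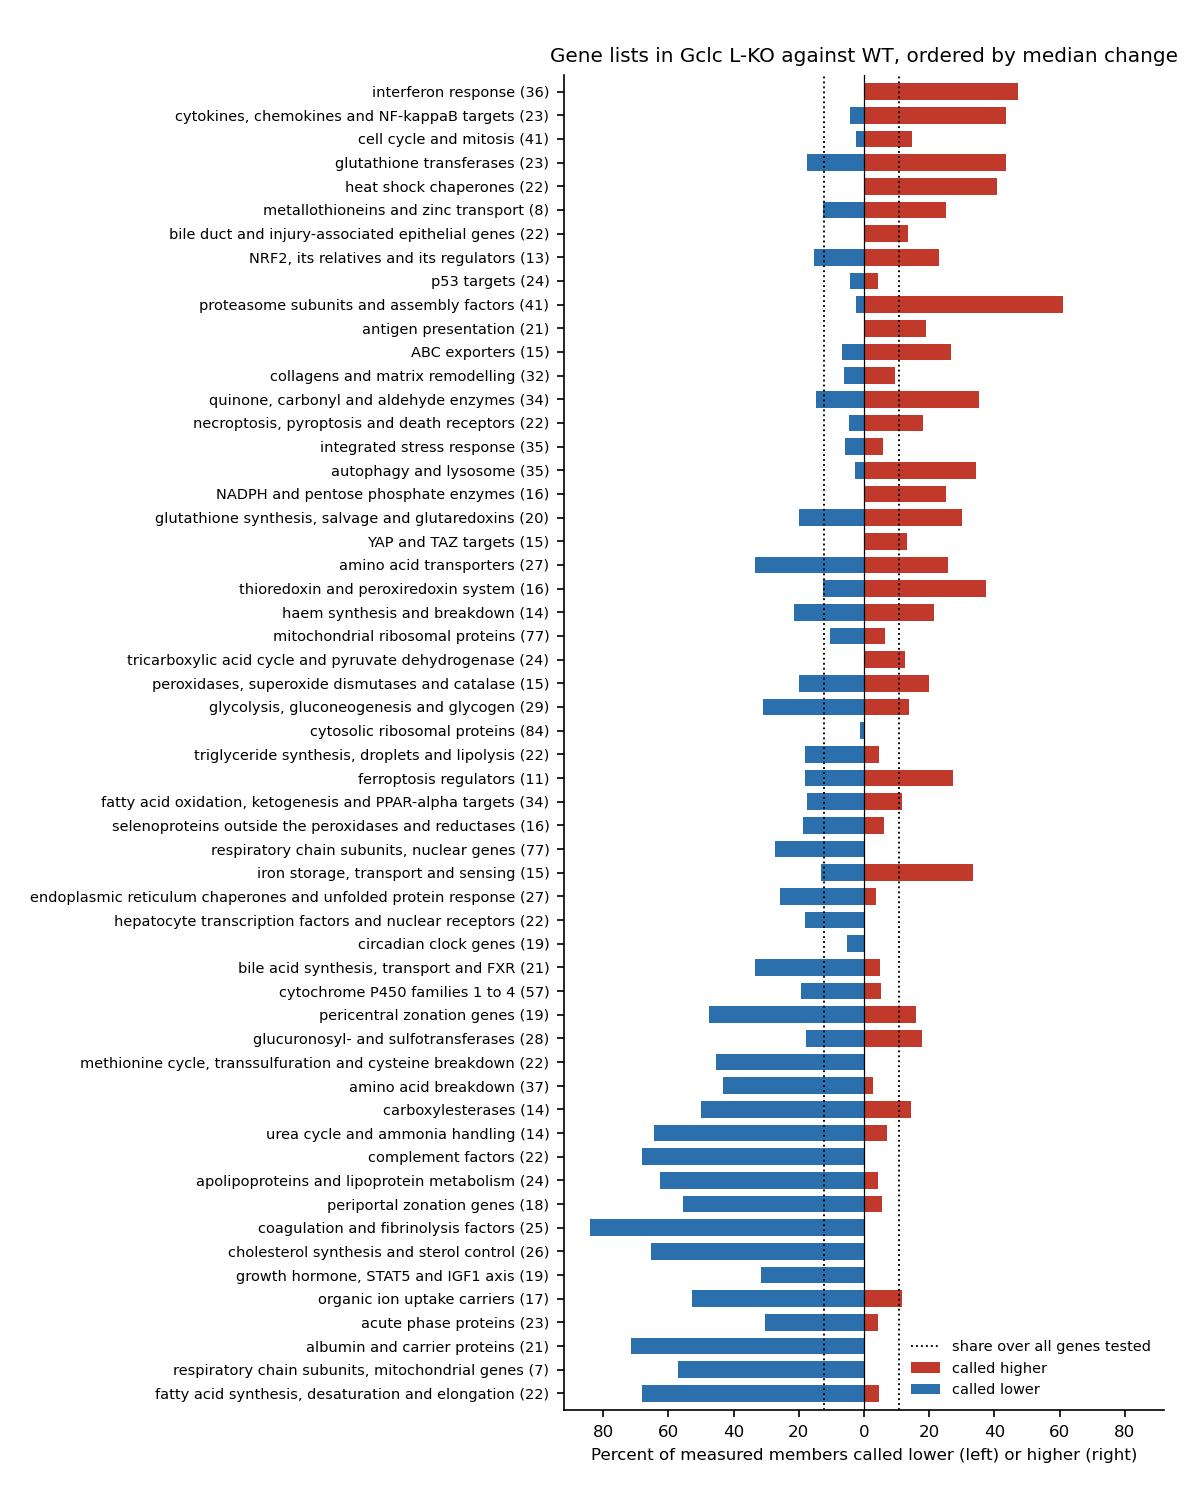
Percent of the measured members of 56 gene lists (y axis, number measured in parentheses) called lower (to the left) or higher (to the right) in Gclc L-KO against WT, ordered by the median change of the list. Dotted lines mark the shares over all genes tested, 12.4% lower and 10.6% higher, which coagulation factors (84.0% lower) and proteasome genes (61.0% higher) exceed.

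Interferon-stimulated genes were called in one direction. Of 36 measured genes 17 were higher and 0 lower, with a median of 0.92, and 17 or more were called whichever library was left out. *Isg15*, a ubiquitin-like modifier, read 8.80, 8.82, 8.63 and 8.34 in WT and 10.48, 11.17, 10.40 and 9.44 in Gclc L-KO. *Rsad2*, the antiviral enzyme viperin, was 2.15 higher and *Ifit1*, which binds foreign RNA, 1.65 higher. The list was highest in the livers that were otherwise nearest to WT, with medians of 1.12 and 1.29 above the WT mean in Gclc L-KO 1 and 2, 0.85 in Gclc L-KO 3 and 0.22 in Gclc L-KO 4. *Mx1*, a GTPase that blocks viruses, ran against that order, with 6.96, 6.78, 6.59 and 6.60 in WT and 8.01, 8.58, 10.08 and 10.20 in Gclc L-KO. Antigen presentation was higher in 4 of 21 genes, including the peptide-loading factor *Tapbp* (0.73) and the proteasome activator *Psme1* (0.63), while *B2m* (-0.14) and *H2-Aa* (0.02) were uncalled.

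Inflammatory and macrophage genes were modestly higher. Of 23 cytokine, chemokine and NF-kappaB target genes 10 were higher and 1 lower, 4 without Gclc L-KO 4 and 6 without Gclc L-KO 3, and the list median stood at 0.05 in Gclc L-KO 1 against 0.56 to 0.85 in the others. *Ccl3*, a macrophage chemokine, read 3.27, 2.91, 3.02 and 3.11 in WT and 3.60, 4.01, 4.43 and 4.50 in Gclc L-KO. Markers of Kupffer cells, the resident macrophages of the liver, were higher in 4 of 8 and lower in 0 (2 without Gclc L-KO 3 or 4), with mean levels of 9.49 to 9.90 in WT and 10.22 to 10.75 in Gclc L-KO. *Clec4f*, a Kupffer cell lectin, was 0.65 higher and *Cd5l*, which they secrete, 1.07 higher, and neither is near 0 in WT. Markers of recruited macrophages were higher in 2 of 9 (8 without Gclc L-KO 1, which read like WT for this list, and 1 without any other library), with mean levels of 6.42 to 6.70 in WT and 6.58 to 7.64 in Gclc L-KO. T and NK cell markers were called in 0 of 8, but their mean levels were 4.32 to 4.41 in WT and 4.47 to 4.83 in Gclc L-KO, without overlap. Hepatocyte markers were lower in 3 of 6, with mean levels of 17.13 to 17.37 in WT and 16.01 to 16.62 in Gclc L-KO. The part of a changed cell mixture in the falls of hepatocyte products and in the rises of immune genes was not tested.

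Proliferation, matrix and duct genes gave weaker results. Cell cycle genes were higher in 6 of 41 and lower in 1, with a median of 0.52, but 1 was called higher without WT 1, Gclc L-KO 3 or Gclc L-KO 4 and 3 without Gclc L-KO 2. *Mki67* read 7.30, 6.83, 7.06 and 6.94 in WT and 7.38, 8.12, 7.995 and 8.22 in Gclc L-KO, with no overlap and no call (0.90 ± 0.34 SE, limma adjusted p = 0.0675), and *Mcm2*, a replication helicase subunit, was 0.73 higher. Collagen and matrix genes were higher in 3 of 32, none of them in 7 of the 8 fits with 1 library left out, and *Col1a1* was uncalled (0.49 ± 0.27 SE). *Krt8*, a hepatocyte and duct keratin, was 1.05 higher, and *Ly6d*, a surface protein listed among injury-associated epithelial genes, read 5.65, 5.74, 5.40 and 5.22 in WT and 7.001, 9.59, 7.72 and 9.28 in Gclc L-KO. The duct markers *Krt19* (-0.56) and *Krt7* (-0.32) were uncalled.

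The 4 Gclc L-KO livers were unequally far from WT. On the first principal component, which held 52.2% of the variance of the 8 libraries, WT lay between -39.7 and -25.1, and Gclc L-KO 1 to 4 lay at 2.2, 16.7, 43.5 and 55.1. Over the 1609 genes called higher the median distance from the WT mean was 0.31, 0.46, 0.55 and 0.64 in Gclc L-KO 1 to 4, and over the 1872 called lower -0.34, -0.51, -0.63 and -0.76. Gclc L-KO 1 was the nearest to WT for 2470 of the 3481 calls and Gclc L-KO 4 the farthest for 2210. Proteasome and heat shock lists did not share this order, with medians of 0.21 to 0.23 and 0.27 to 0.31 in all 4 livers, whereas the fall of the carrier proteins grew from -0.34 to -1.24.

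**Figure D4:**
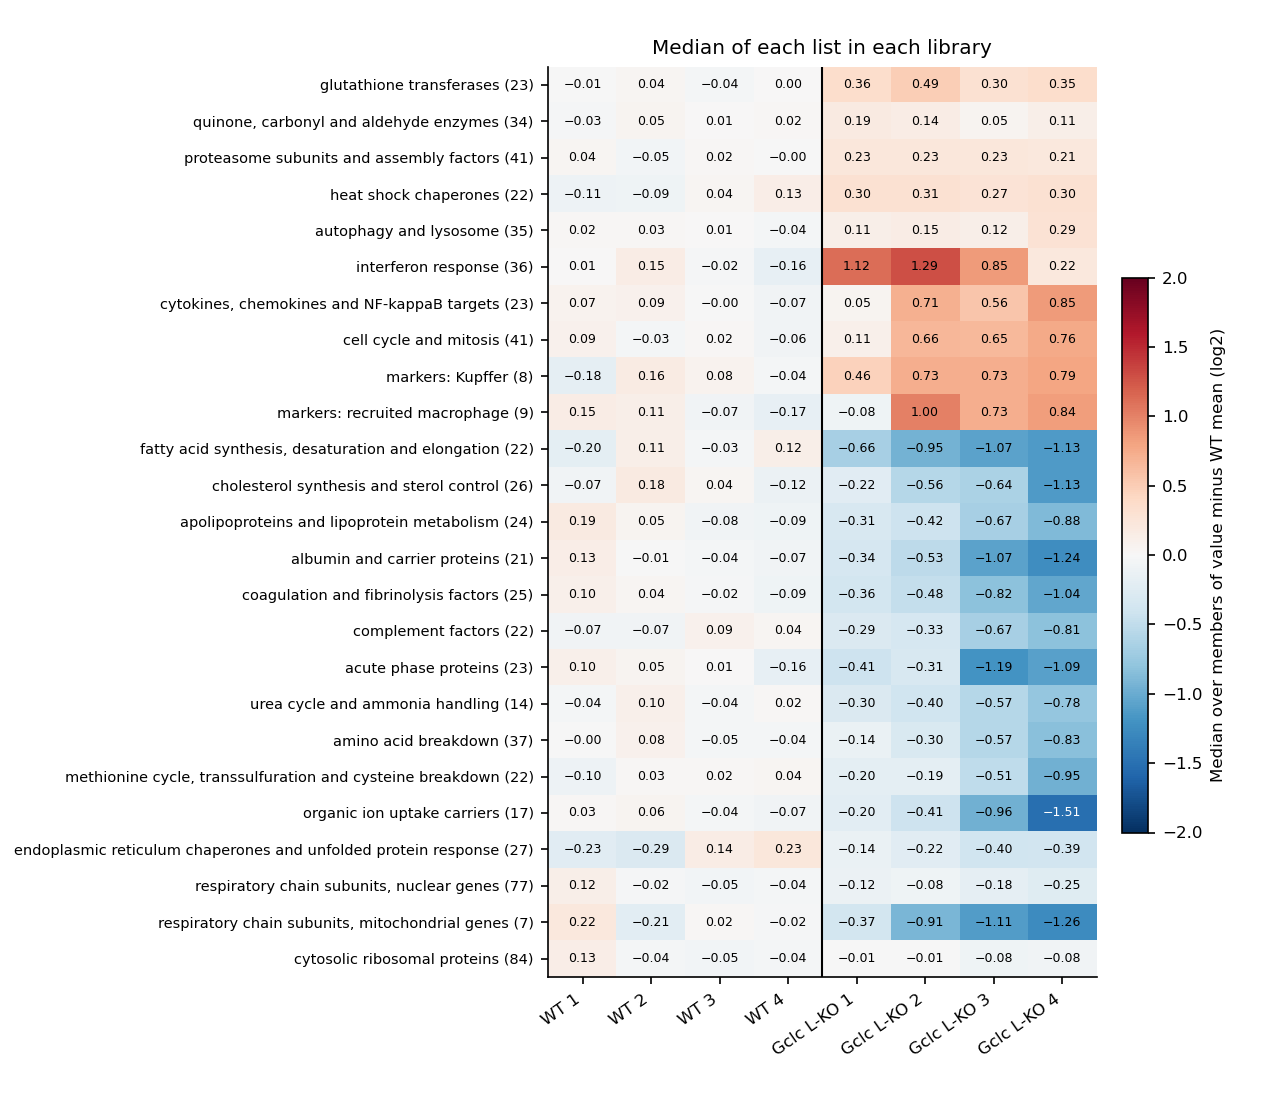
Median over the members of 25 gene lists (rows, number measured in parentheses) of the value minus the WT mean (colour and printed number, log2 scale) in each of the 8 libraries (columns). Uptake carriers reach -1.51 in Gclc L-KO 4 and -0.20 in Gclc L-KO 1, while the interferon list falls from 1.12 to 0.22 between the same livers.

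When the change was fitted within each pair of replicates, 1588 genes (10.5%) were called in replicates 1 and 2 (5.13% higher and 5.37% lower) and 4519 (29.9%) in replicates 3 and 4 (13.7% higher and 16.2% lower). Of these, 1145 were called in the same direction in both, 72.1% of the first and 25.3% of the second, and 9 in opposite directions. These pairs share no library, but both changes were fitted with one estimate of each gene's spread, so the 2 sets of calls are not independent. The count in replicates 1 and 2 fell to 285 without Gclc L-KO 2 and 362 without WT 1, and that in replicates 3 and 4 to 2631 without WT 3, 2342 without WT 4 and 2185 without Gclc L-KO 4. The difference between the pairs was itself called for 136 genes (0.899%), of which 102 (0.674% of all tested) changed more negatively in replicates 3 and 4 and 34 (0.225%) more positively. That count was unstable, at 30 without Gclc L-KO 1, 31 without WT 3, 36 without Gclc L-KO 4, 38 without WT 4, 52 without WT 1, 69 without WT 2 and 353 without Gclc L-KO 3. Among those 102, 95 were called lower within replicates 3 and 4, which the selection favours. In Nrf2 L-KO, whose libraries are not part of this contrast, replicates 3 and 4 both lay above replicates 1 and 2 for 49.0% of the 102 and both below for 31.4%, against 25.5% and 21.8% of all genes tested.

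Among the largest differences were genes whose WT values split between the pairs, a split that is itself part of the contrast. *Mup1* read 5.13, 4.27, 10.93 and 11.24 in WT and 3.51, 3.60, 4.20 and 4.08 in Gclc L-KO. It was thus lower by 1.15 in replicates 1 and 2 and by 6.95 in replicates 3 and 4, where alone it was high in WT. *Elovl3*, a fatty acid elongase, showed the same picture, 7.46, 6.77, 12.51 and 12.86 in WT against 6.50, 6.05, 6.97 and 6.84 in Gclc L-KO, with a difference between pairs of -4.95 (limma adjusted p = 1.36e-04). Over all 4 replicates the call of *Mup1* was lost without WT 3, WT 4 or any one Gclc L-KO library. *C8a* (-2.21) also changed more negatively in replicates 3 and 4, as did *F11* (-1.22, not called without WT 3, Gclc L-KO 1 or Gclc L-KO 4). In the other direction *Slc7a11* (5.80) and *Mx1* (2.13) rose more in replicates 3 and 4, and *Igfbp2* (1.004) fell less there. *Gstp1* was high in WT 3 and 4 (13.81 and 14.07) and lower in WT 1 and 2 (11.83 and 11.94) and reached 14.44 to 14.92 in all Gclc L-KO livers, so that its rise was 2.61 in replicates 1 and 2 and 0.84 in replicates 3 and 4. Whether sex, another property of the mice or the order of handling separates the pairs cannot be told apart here.

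**Figure D5:**
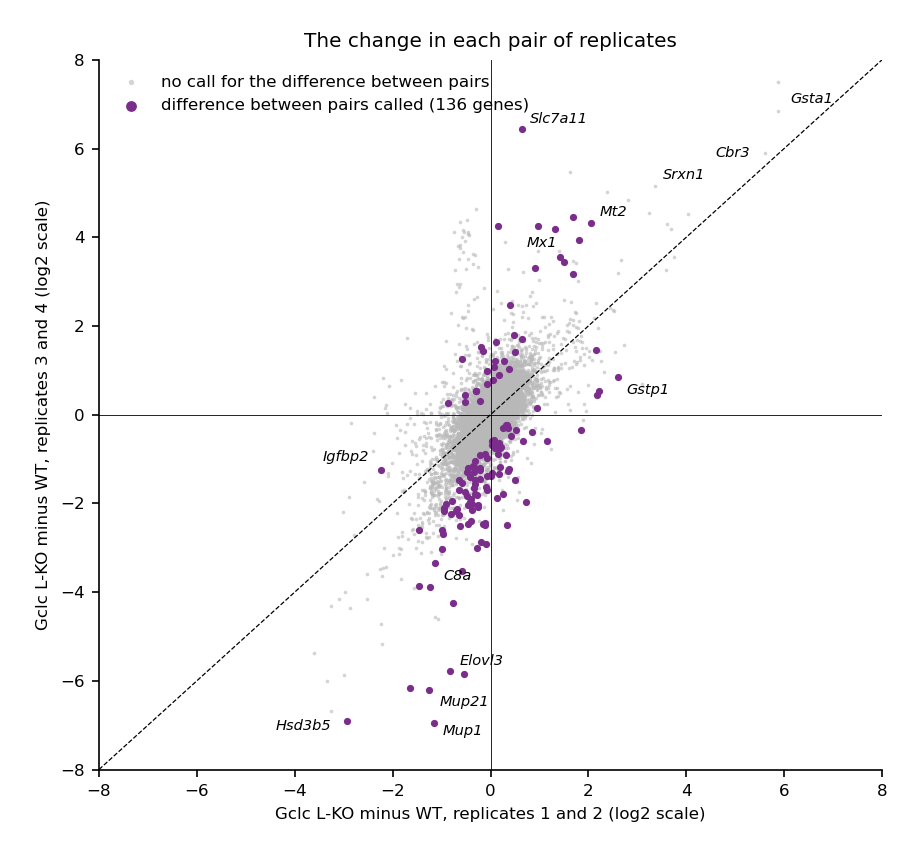
Gclc L-KO minus WT in replicates 1 and 2 (x axis) and in replicates 3 and 4 (y axis), both on the log2 scale, for each gene tested, with the 136 genes whose difference between pairs was called in purple and equality dashed. *Mup1*, *Mup21* and *Elovl3* lie far below the dashed line, and *Slc7a11* far above it.

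L-DKO, in which *Nrf2* was deleted as well, differed from Gclc L-KO in 1307 genes (8.64%), 581 higher (3.84%) and 726 lower (4.8%). The comparison shares the Gclc L-KO libraries with the one above, so values are set side by side only, and 645 genes were called when only these groups entered the model, 653 without Gclc L-KO 3 and 826 without L-DKO 4. *Gsta1* averaged 5.74 in L-DKO against 11.61 in Gclc L-KO and 5.25 in WT, and *Slc1a1* 3.17 against 6.84 and 3.13. *Mt2* averaged 13.11 in L-DKO and 12.88 in Gclc L-KO (0.23, limma adjusted p = 0.863), against 9.69 in WT. The proteasome subunits *Psma1* (0.03) and *Psmd14* (-0.02) and the antiviral gene *Rsad2* (-0.52) were also uncalled between L-DKO and Gclc L-KO. *Mx1* was lower in L-DKO (-2.30). These single genes do not stand for their lists. Of the 41 proteasome genes, the same comparison called 9 with L-DKO the higher group and 2 with L-DKO the lower. Of the 36 interferon-stimulated genes, 5 were called with L-DKO the lower group and 0 with L-DKO the higher. *Mup3* averaged 15.41 in L-DKO, between 13.34 in Gclc L-KO and 16.97 in WT.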

How the data were processed

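Liver RNA was prepared as stranded mRNA libraries from 16 mice. According to the submitters' processing notes the authors used bcl2fastq 2.20.0, fastp, STAR 2.7.9a on GRCm39, featureCounts (Subread 2.0.1), DESeq2 1.34.0 and R 3.5.1. The deposited table holds DESeq2 rlog values per gene, on a log2 scale, and 26656 of its 56832 genes are 0 in every library. Depth is unknown, so no count model and no counting interval was possible.

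Genes with a mean of at least 3 were fitted with limma 3.58.1 in R 4.3.3 (lmFit, eBayes with a mean-variance trend, 1 mean per genotype, 12 residual degrees of freedom, two-sided tests, Benjamini-Hochberg over the 15128 genes tested, threshold 0.05). The response within replicates 1 and 2 and within replicates 3 and 4 was fitted with 1 mean per genotype and pair (8 residual degrees of freedom). The procedure was tested on simulated data. The labels name separate mice, and do not say that a replicate number pairs them. Correlations between same-numbered deviations were not all over 0.1, and the main fit used neither a pairing nor a term for the pairs of replicates.

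A gene is named if it is *Gclc*, *Nfe2l2*, *Xist* or *Ddx3y*, if it ranks within the 15 largest called rises or falls whose groups are apart, if it is one of the first 2 measured entries of a list or of up to 4 entries of that list that changed most and were called, or if it is one of the 5 largest differences in each direction between pairs. Others were chosen after their values were seen (*Chac2*, *Cyp2b9*, *Gstp1* and, without a value, *Cyp2a4*). The 56 gene lists, the 11 marker lists and the comparison itself were chosen with earlier results of these data known. Some genes that meet this rule are not reported here. Lists are described by counts and medians, beside the shares over all genes. Alternatives were array weights, quantile normalization or median centring, robust eBayes or eBayes without a trend, a minimum mean of 6 or no filter, *Xist* as a covariate, the replicate number as a block, only the groups compared, each pair of replicates alone, a minimum change of 1, and leaving out each library in turn. Figures were drawn with matplotlib 3.10.9.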

Additional observations from a re-analysis of the deposited data

Results flagged for a closer look

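In 9 gene and group combinations, 1 library stood apart from the other 3 of its group by Dixon's criterion for 4 samples, which chance meets in about 1 of 20 groups. Many genes were screened in both groups, so several such cases would arise by chance alone. The 9 are listed as description and do not mark a library as unusual. Gclc L-KO 1 was the lowest of its group for *Apoa1* (15.5, the others 15.94 to 16.01), *Cbr3* (10.27, the others 11.06 to 11.21) and *Gpx4* (12.48, the others 12.85 to 12.92), and the highest for *Chrna4* (6.80, the others 5.20 to 5.28). For *Cbr3*, *Gpx4* and *Chrna4* it was thus the Gclc L-KO liver nearest to WT, and for *Apoa1*, which fell, the farthest from it. Among WT livers, WT 1 was the lowest for *Atp6v1a* (10.32, the others 10.81 to 10.87) and the highest for *B2m* (15.61, the others 15.40 to 15.43) and *mt-Co1* (19.27, the others 18.99 to 19.02). WT 4 was the highest for *Atf4* (11.72, the others 11.47 to 11.50) and WT 2 for *Bach1* (10.58, the others 10.27 to 10.32).

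The response differed between the pairs of replicates, by limma's test of that difference, for 20 of the genes named. Over all genes tested it did so for 136 (0.899%). Some of the 20 were named for the size of this same difference, so their count does not measure how common it was. In replicates 3 and 4 the change was the more negative for *Mup1* (-5.801), *Elovl3* (-4.95), *Mup21* (-4.95), *Hsd3b5* (-3.97), *Slc22a28* (-2.40), *C8a* (-2.21), *Gstp1* (-1.77), *Cyp2c70* (-1.59), *Itih4* (-1.44), *F11* (-1.22), *C9* (-1.22), *Orm1* (-1.15) and *C8b* (-1.11). It was the more positive there for *Slc7a11* (5.795), *Mt2* (2.27), *Mt1* (2.13), *Mx1* (2.13), *Gss* (1.08), *Igfbp2* (1.004) and *Gch1* (0.94). The test for *Mt2* was not passed without WT 1, 3 or 4 or Gclc L-KO 1, 3 or 4.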

How the results depend on the processing

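The 3481 genes called between Gclc L-KO and WT became 849 in replicates 1 and 2 only and 568 with a minimum change of 1, and lay between 2686 and 4939 under the other settings and between 1999 and 4154 with 1 library left out. The 1307 calls between L-DKO and Gclc L-KO became 2056 with *Xist* as a covariate, 645 with only the groups compared and 212 with a minimum change of 1, and 653 to 1564 with 1 library left out. With 1 library left out, calls ranged from 285 to 1562 in replicates 1 and 2, from 2185 to 4527 in replicates 3 and 4, and from 30 to 353 for the difference between pairs, where the lone library of an arm is assumed to vary like the others. The 498 calls over all lists became 222 in replicates 1 and 2 only, 164 with a minimum change of 1 and 336 to 596 with 1 library left out. A minimum change of 1 lowers a count by construction, and the cause of the other shifts was not tested. Under quantile normalization 49.5% of calls were higher, against 46.2%.

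Replicate numbers did not pair the samples, with correlations of same-numbered deviations of 0.36, -0.07, 0.08 and 0.36, and replicates 1 and 4 of Gclc L-KO alone correlated best with their own number. Correlations of WT with Gclc L-KO libraries ran from -0.07 to 0.36 within the pairs of replicates and from -0.39 to -0.01 across them. The main fit has no term for the pairs, so its SEs include that split, and *Xist* as a covariate gave 4577 calls against WT. A replicate block gave 4093 calls against WT, 1681 for L-DKO and 595 over the lists, and ended no call of a named gene. Of 123 named genes that were called, 118 kept the call whichever library was left out, and *Mup1*, *Mup21*, *Slc7a11*, *mt-Co1* and *Lyve1* did not. Many of these genes were named because their called change was large, which favours keeping the call. Over all genes tested, 1957 of the 3481 calls were kept without Gclc L-KO 4. In replicates 1 and 2 only, 39 of the named genes lost the call, and 0 reversed under any setting. Depth is unknown, so the precision of low values cannot be stated.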

Other observations

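Bile acid genes were lower in 7 of 21 and higher in 1. *Cyp7a1*, the rate-limiting enzyme of bile acid synthesis, read 11.42, 12.44, 10.85 and 11.14 in WT and 11.49, 10.33, 8.66 and 7.36 in Gclc L-KO, and the groups overlapped through Gclc L-KO 1 (-2.001 ± 0.73 SE, limma adjusted p = 0.0597). *Cyp8b1*, which sets the share of cholic acid, differed by -0.19 ± 0.29 SE. Of 24 genes of the tricarboxylic acid cycle 3 were higher (12.5%, against 10.6% of all genes tested) and 0 lower (2 lower without Gclc L-KO 1). *Gch1*, which makes the precursor of tetrahydrobiopterin, was 0.74 higher, *Selenoo* lower (-0.71) and *Lpin1*, a phosphatidate phosphatase, lower (-1.10) with no overlap.

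Circadian clock genes were lower in 1 of 19 and higher in 0, and 2 of them, named here for the list, followed the replicate pairs in WT. *Dbp*, an output factor of the clock, read 11.28, 11.36, 8.40 and 8.14 in WT and 10.65, 9.07, 8.35 and 7.07 in Gclc L-KO, and *Arntl*, a core activator, read 7.48, 7.18, 9.34 and 9.57 in WT and 7.77, 8.72, 9.11 and 9.18 in Gclc L-KO. WT 1 and 2 thus differed from WT 3 and 4 in these clock genes, which are known to change over the day, as well as in *Xist*, and these properties cannot be told apart.

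Genes of the exocrine pancreas varied between livers of both groups. *Ctrb1*, a chymotrypsinogen, read 8.22, 13.42, 8.27 and 11.46 in WT and 12.38, 8.01, 15.40 and 13.02 in Gclc L-KO, and *Prss2*, a trypsinogen, read 7.02, 11.90, 6.94 and 10.15 in WT and 11.14, 6.82, 14.13 and 11.74 in Gclc L-KO. WT 2 and Gclc L-KO 3 were the highest of their groups for both genes, and the groups overlapped. Among the largest changes outside the lists, *Chrna4*, a nicotinic receptor subunit, read 9.25, 9.30, 8.69 and 10.41 in WT and 6.80, 5.25, 5.28 and 5.20 in Gclc L-KO, and the gene model *Gm12498* was 3.43 higher.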
